A study of Mus musculus with 3 samples.

Results

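The genes described here are 7 lipocalin genes of the mouse epididymis, Lcn2, Lcn5, Lcn6, Lcn8, Lcn9, Lcn10 and Lcn12, of 24346 genes in the deposited table. They were chosen by gene symbol, and all 7 were found. RNA was sequenced from epididymal tissue holding the initial segment and the caput, the proximal stretch of the duct that sperm enter on leaving the testis. The animals were labelled as untreated 14-week-old mice of genotype Ovch2-/-, a knockout of the gene for ovochymase 2, a serine protease secreted into the lumen of the initial segment. The labels give 1 group of 3 libraries, called here replicates 1, 2 and 3, and do not say whether each came from a separate animal, so the spread between them may be technical. Control tissue was not analysed here, so every difference below is a difference between libraries of 1 labelled genotype and no test between genotypes was made.

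Lipocalins are small secreted proteins whose barrel-shaped fold holds a hydrophobic ligand such as a retinoid. In the mouse a group of them is encoded side by side on chromosome 2 and is transcribed along the epididymal duct, each gene in its own stretch, under androgens and, in the initial segment, under factors that reach the epithelium from the testis through the lumen. Those lumicrine factors act through the receptor ROS1 and ERK signalling, with ETS transcription factors among the outputs. The secreted lipocalins then meet the sperm in the lumen.

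In these libraries the lipocalin genes did not move as a block. Lcn8, Lcn9 and Lcn10 were abundant in replicates 2 and 3 and far less abundant, or listed at 0, in replicate 1. Lcn5, which lies between Lcn8 and Lcn10, was highest in replicate 1, and Lcn6 and Lcn12 varied by only 1.41-fold and 1.43-fold between the highest and lowest library. Lcn2, on the same chromosome but far from the others, was lower in replicate 1 by a smaller amount.

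Positions are those of RefSeq on GRCm38.p6, the assembly behind the mm10 build named in the submitters' processing notes. Lcn12 (NCBI gene 77701) lies at chromosome 2 from 25490845 to 25494061 on the minus strand. After a gap of 159 kb come Lcn8 (gene 78076, 25653118 to 25656217), Lcn5 (gene 13863, 25657932 to 25662230), Lcn6 (gene 620709, 25676638 to 25681608) and Lcn10 (gene 332578, 25682726 to 25686081), all on the plus strand. Lcn8 and Lcn5 are 1714 bases apart, and Lcn6 and Lcn10 are 1117 bases apart. Lcn9 (gene 77704, 25823088 to 25825546, plus strand) follows 137 kb after Lcn10, and Lcn2 (gene 16819, 32384637 to 32387739, minus strand) lies 6.56 Mb beyond Lcn9. The GENCODE protein-coding transcripts of these genes have 5 to 7 exons and are 619 to 1254 bases long. In that annotation 0 other genes overlap any of the 7, on either strand. Of the 31-base stretches in their transcripts, 0 were shared with a transcript of another gene, so exact matches of that length in the annotated transcripts point to 1 gene each.

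The upstream sequences of Lcn8, Lcn5 and Lcn10 are shown because the RNAs of these near neighbours differed between the libraries in opposite directions. They run 5′ to 3′ toward the gene, from RefSeq on GRCm38.p6, and end at the earliest annotated start of each gene. Capitals mark matches to AGAACA (part of the glucocorticoid receptor motif) or TATAA (the TATA-like stretch). The windows are chr2:25652868-25653117 for Lcn8, chr2:25657702-25657931 for Lcn5 and chr2:25682476-25682725 for Lcn10, all on the plus strand.
Lcn8: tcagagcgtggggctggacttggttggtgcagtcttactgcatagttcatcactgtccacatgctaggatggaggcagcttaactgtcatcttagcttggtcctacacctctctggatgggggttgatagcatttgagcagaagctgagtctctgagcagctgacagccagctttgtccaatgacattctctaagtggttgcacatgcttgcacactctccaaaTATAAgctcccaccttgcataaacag
Lcn5: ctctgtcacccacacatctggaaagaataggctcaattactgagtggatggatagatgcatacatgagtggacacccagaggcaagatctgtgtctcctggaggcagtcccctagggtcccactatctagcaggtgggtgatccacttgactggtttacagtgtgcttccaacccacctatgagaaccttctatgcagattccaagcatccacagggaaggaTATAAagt
Lcn10: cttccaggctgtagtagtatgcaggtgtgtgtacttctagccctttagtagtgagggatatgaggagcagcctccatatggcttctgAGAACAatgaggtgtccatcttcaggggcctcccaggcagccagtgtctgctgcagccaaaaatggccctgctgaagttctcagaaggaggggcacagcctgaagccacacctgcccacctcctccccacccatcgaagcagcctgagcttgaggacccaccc

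Matches were searched in the 250 bases before the start used in RefSeq's promoter sequences. That start is the first base of the gene span given above for Lcn2, Lcn8 and Lcn10, and lies 20, 148, 65 and 150 bases inside the span of Lcn5, Lcn6, Lcn9 and Lcn12. Counted from it, TATAA stood 26 to 22 bases before the start of Lcn8, 28 to 24 bases before that of Lcn5 and 25 to 21 bases before that of Lcn6. The windows of Lcn2, Lcn9, Lcn10 and Lcn12 held no match on the gene's strand. Among 32851 mouse promoters, 16.0% held TATAA in their 250 bases. The letters AGAACA, searched on both strands, were found in the windows of Lcn6, Lcn9, Lcn10 and Lcn12, which is 4 of the 7 genes, and in 16.1% of all promoters. The TATAA of Lcn6 and the AGAACA of Lcn9 lie inside the gene spans given above, after an earlier annotated start. The whole window of Lcn2 lies inside its GENCODE span, which reaches to 32388252. No sequence upstream of that span was searched for Lcn2. AGGTCA (part of nuclear receptor motifs), CCGGAA (the ETS core) and TGTTTAC (the forkhead motif), also searched on both strands, had matches in 0 of the 7 and in 14.0%, 12.0% and 3.17% of promoters. A match is a description of the letters and not a bound site. Of Lcn2, Lcn8, Lcn9 and Lcn10, all least abundant in replicate 1, Lcn9 and Lcn10 held AGAACA and Lcn8 held TATAA.

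Before the levels are compared, replicate 1 has to be set apart. The table holds fragments scaled by transcript length and by the size of the library (FPKM), with totals of 729695, 745294 and 814000 FPKM in replicates 1, 2 and 3. Absolute depth is unknown, because the table has no counts, but the most common ratio between low values put replicate 1 at 1.21 times the depth of replicate 2 and 1.41 times that of replicate 3. A gene is called low in a library where its FPKM + 1 was 2-fold or more under each of the others, and high where it was 2-fold or more over each. Of 6 initial segment markers, 5 were low in replicate 1 (all but Ros1), and the 6 summed to 27.5 FPKM there, 4918 FPKM in replicate 2 and 4383 FPKM in replicate 3. All 4 sperm and germ cell markers were low there as well, with Prm1, Prm2 and Tnp2 listed at 0, and summed to 0.301, 143 and 192 FPKM. The 3 caput principal cell markers Gpx5, Adam7 and Spag11b were neither low nor high in any library and summed to 41768, 57221 and 50658 FPKM. Of 4 clear cell markers, 3 were high in replicate 1, with sums of 145, 68.5 and 71.4 FPKM, while basal cell markers summed to 166, 129 and 135 FPKM and smooth muscle markers to 432, 280 and 253 FPKM. The basal cell integrin gene Itga6 was low in replicate 1 (4.48, 11.6 and 10.2 FPKM). Trp63 of the basal list (12.7, 16.9 and 14.5 FPKM) was also lowest there, whereas Krt5 and Krt14 were highest there. Among the clear cell markers, Car2 alone was lowest there (9.09, 11.0 and 11.6 FPKM). The red blood cell globin gene Hba-a1 was low in replicate 1 and high in replicate 3 (8.46, 31.5 and 119 FPKM). Hbb-bs, the other red blood cell gene, was read near 0 in all libraries (0.00539, 0.00507 and 0.00508 FPKM), possibly a failed estimate. The part of any of these in the lipocalin differences was not tested, and in bulk tissue fewer cells of a type and less RNA per cell cannot be told apart. Ovch2, the targeted gene, was read at 4.50, 80.2 and 77.2 FPKM in replicates 1, 2 and 3, and a gene-level value does not say which exons the reads came from, so it checks no label. Genotype and tissue are given as labelled: whether the dissection of replicate 1 differed, or the label of any library is wrong, was not tested.

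**Figure D1:**
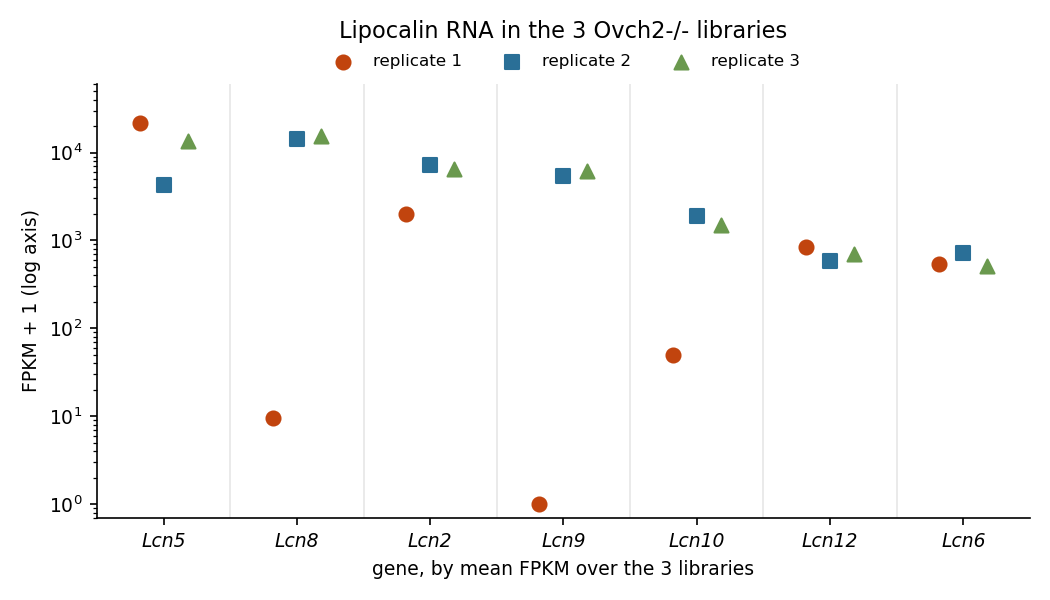
FPKM + 1 on a log axis for each lipocalin gene, ordered by mean FPKM, with 1 point per library labelled Ovch2-/-. In replicate 1, Lcn8, Lcn9 and Lcn10 lie far below replicates 2 and 3 and Lcn2 lies below them by less, while Lcn5 is highest there and Lcn6 and Lcn12 lie close together in all 3 libraries.

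Lcn5 encodes the epididymal retinoic acid-binding protein, a product of caput principal cells under androgen control, and its RNA measured 21673, 4290 and 13581 FPKM in replicates 1, 2 and 3, with a mean of 13181 ± 8699 FPKM (SD, n = 3). Replicate 1 was the highest library and replicate 2 the lowest, 5.05-fold apart. Replicates 2 and 3 were themselves 3.17-fold apart, so the split of Lcn5 was not that of replicate 1 against the rest. It was the second most abundant gene of the whole table in replicate 1, and ranked 19 in replicate 2 and 6 in replicate 3. Lcn12, whose rat counterpart binds retinoic acid, measured 844, 589 and 691 FPKM in replicates 1, 2 and 3, with a mean of 708 ± 128 FPKM (SD, n = 3). It followed the same order of libraries as Lcn5, highest in replicate 1 and lowest in replicate 2, over a range of only 1.43-fold.

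Lcn8 encodes the protein also named mEP17, known from the initial segment of the mouse. Its RNA measured 8.58, 14252 and 15342 FPKM in replicates 1, 2 and 3, with a mean of 9867 ± 8555 FPKM (SD, n = 3). Replicates 2 and 3 were 1.08-fold apart and replicate 1 lay 1725-fold below their mean. Lcn8 ranked 4 of all genes in each of replicates 2 and 3 and 7159 in replicate 1. Against its neighbour Lcn5, 1714 bases away, its level was 3.32 times as high in replicate 2 and 1.13 times as high in replicate 3, whereas in replicate 1 Lcn5 was 2526 times as high as Lcn8.

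Lcn9 and Lcn10 are further lipocalin genes of the epididymis. Lcn9 was listed at 0 in replicate 1, whereas replicate 2 had 5415 FPKM and replicate 3 had 6106 FPKM, 1.13-fold apart. A value of 0 in such a table can also be a failed estimate, so no fold is given. Lcn10 measured 49.1, 1898 and 1513 FPKM in replicates 1, 2 and 3, with a mean of 1153 ± 975 FPKM (SD, n = 3). Its level in replicate 1 was 34.7-fold below the mean of the others, a smaller gap than that of Lcn8. Lcn8 stood to Lcn10 at a ratio of 0.175, 7.51 and 10.1 in replicates 1, 2 and 3, so even the genes that were low together did not keep 1 proportion.

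Lcn6 encodes a lipocalin that binds to sperm. Its RNA measured 542, 724 and 515 FPKM in replicates 1, 2 and 3, with a mean of 594 ± 114 FPKM (SD, n = 3). Here replicate 1 lay between the other libraries. Lcn6 is 1117 bases from Lcn10, and it was 11.0 times as high as Lcn10 in replicate 1, against 0.382 times in replicate 2 and 0.340 times in replicate 3.

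Lcn2 encodes a lipocalin, also called 24p3, that binds bacterial iron-carrying siderophores and is made by epithelia and neutrophils. Its RNA measured 2006, 7266 and 6421 FPKM in replicates 1, 2 and 3, with a mean of 5231 ± 2824 FPKM (SD, n = 3). Replicate 1 was 3.41-fold below the mean of the others. Of 8 neutrophil markers, Mpo, Elane and Retnlg were listed at 0 in all libraries and the remaining 5 reached at most 0.5001 FPKM (S100a8 in replicate 3). The list summed to 1.04, 0.335 and 0.801 FPKM in replicates 1, 2 and 3. The 5 acute inflammation genes summed to 0.436, 1.64 and 1.69 FPKM, with Il6 listed at 0 throughout, Saa3 at 0.281 FPKM in replicate 3 alone and Il1b the highest by mean at 0.172, 0.628 and 0.798 FPKM. Of the receptors for the protein, Slc22a17 stood at 24.3, 21.2 and 31.4 FPKM and the endocytic receptor gene Lrp2 at 2.01, 0.748 and 1.18 FPKM. Mc4r, which encodes a receptor for the hormone form of LCN2 in the brain, had 0.0248 FPKM in replicate 1 and was listed at 0 in the others.

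As a list, 4 of the 7 genes (Lcn2, Lcn8, Lcn9 and Lcn10) were low in replicate 1, against 4.07% of 13073 genes. These are the genes whose mean reached 1 FPKM, a filter that all 7 passed. Lcn9 passed it only through replicates 2 and 3. Of the 532 genes low in replicate 1, 65 were listed at 0 there, as Lcn9 was. In that library 0 of the 7 were high, against 1.29% of those genes. In replicate 2, 1 of the 7 (Lcn5) was low, against 0.757%, and 0 were high, against 0.237%. In replicate 3, 0 of the 7 were low or high, against 0.153% low and 0.314% high. The median of replicate 1 minus the mean of replicates 2 and 3 was -1.77 over the 7 genes and -0.01 over the 13073, in log2(FPKM + 1).

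Without replicate 1 the ranges of Lcn2, Lcn8, Lcn9 and Lcn10 were much narrower, whereas that of Lcn6 was unchanged. Leaving out a library cannot widen a range. Replicates 2 and 3 were at least 2-fold apart for 1 of the 7 genes, Lcn5, against 1.72% of the 13073. The other 6 were within 1.41-fold, from Lcn8 at 1.08-fold to Lcn6 at 1.41-fold. The mean level over these replicates ran from Lcn8 (14797 FPKM) through Lcn5 (8935 FPKM), Lcn2 (6843 FPKM), Lcn9 (5761 FPKM), Lcn10 (1705 FPKM) and Lcn12 (639.95 FPKM) to Lcn6 (619.54 FPKM). Of the 6 neighbouring pairs in this order, Lcn5 and Lcn2 and also Lcn12 and Lcn6 overlapped and the other 4 did not. The order was taken from the same libraries, so this describes it and tests nothing. With replicate 1 included and genes ordered by mean log2(FPKM + 1), all 6 neighbouring pairs overlapped. Of all 21 pairs, 6 did not overlap over the 3 libraries: Lcn5 (at least 4290 FPKM) and Lcn2 (at least 2006 FPKM) each lay above Lcn10, Lcn12 and Lcn6 (at most 1898, 844 and 724 FPKM). FPKM is scaled by length, but the annotation and the further normalization are unknown here, so the order between genes is approximate.

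The 7 genes together made up 3.44%, 4.62% and 5.43% of all FPKM in replicates 1, 2 and 3. The total therefore differed far less than its make-up. Lcn5 made up 86.3% of the lipocalin sum in replicate 1, 12.5% in replicate 2 and 30.7% in replicate 3. Lcn8 made up 0.0342%, 41.4% and 34.7%, and Lcn9 made up 15.7% in replicate 2 and 13.8% in replicate 3. Lcn2 held 7.99%, 21.1% and 14.5%. Each share depends on the others, since they sum to the whole.

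**Figure D2:**
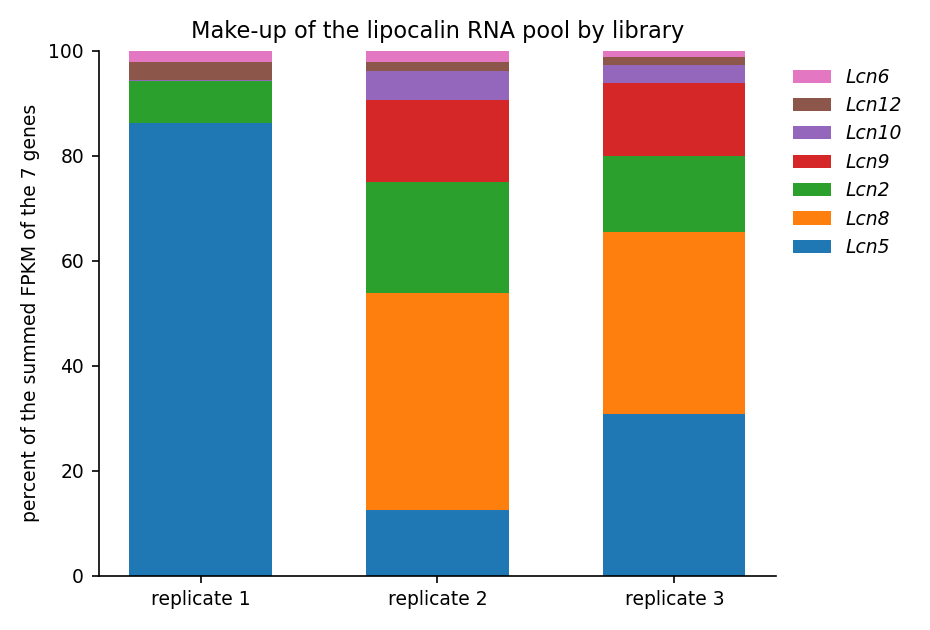
Percent of the summed FPKM of the 7 lipocalin genes taken by each gene, 1 stacked bar per library labelled Ovch2-/-. Lcn5 fills 86.3% of the bar of replicate 1, while Lcn8, Lcn9 and Lcn2 fill most of the bar of replicate 2 and Lcn8 and Lcn5 lead in replicate 3.

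The genes beside and between the lipocalins were compared between the libraries as well. Within 100 kb of the 6 clustered genes the table holds 28 other genes, of which 21 had a mean of at least 1 FPKM. Of these, 3 were low in replicate 1, against 4.07% of the 13073 genes of such a mean. All 3 lie between Lcn10 and Lcn9, and Glt6d1 reached that mean only through replicates 2 and 3. They were Obp2a, an odorant-binding lipocalin gene (8.68, 81.1 and 67.7 FPKM in replicates 1, 2 and 3), the Myc-related gene Bmyc (229, 803 and 790 FPKM) and Glt6d1, a glycosyltransferase family gene (listed at 0, then 2.48 and 1.32 FPKM). Between them, Obp2b (0.246, 2.70 and 1.37 FPKM) and Lcn3 (listed at 0, then 1.49 and 0.946 FPKM) had little RNA in all libraries, and Lcn11 and Gm13539 were listed at 0 in all 3. Lcn8, Lcn10, Obp2a, Bmyc and Lcn9 were thus low in replicate 1, while Lcn5 and Lcn6, which lie between Lcn8 and Lcn10, were not.

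On the side of Lcn12, Ptgds, which encodes the lipocalin-type prostaglandin D synthase, measured 2887, 1382 and 1286 FPKM in replicates 1, 2 and 3. It was high in replicate 1, as was Ccdc183 (11.5, 2.21 and 4.18 FPKM), a coiled-coil gene between Lcn12 and Lcn8. They were 2 of the 21 genes, against 1.29% of the 13073. The gene next to Lcn8 on that side, Fcna, a ficolin gene of macrophages, stood at 13.4, 22.8 and 30.1 FPKM. The 4 macrophage markers summed to 51.0, 77.6 and 84.3 FPKM, and their part in the level of Fcna was not tested. Around Lcn2, 8 of 10 other genes had a mean of at least 1 FPKM. Of these, the mitochondrial carrier gene Slc25a25 (7.13, 24.8 and 16.2 FPKM) alone was low in replicate 1, against 4.07% of the 13073 genes. The genes that flank Lcn2 directly, 1110008P14Rik (194, 219 and 228 FPKM) and Ptges2 (24.8, 18.3 and 20.2 FPKM), were not.

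**Figure D3:**
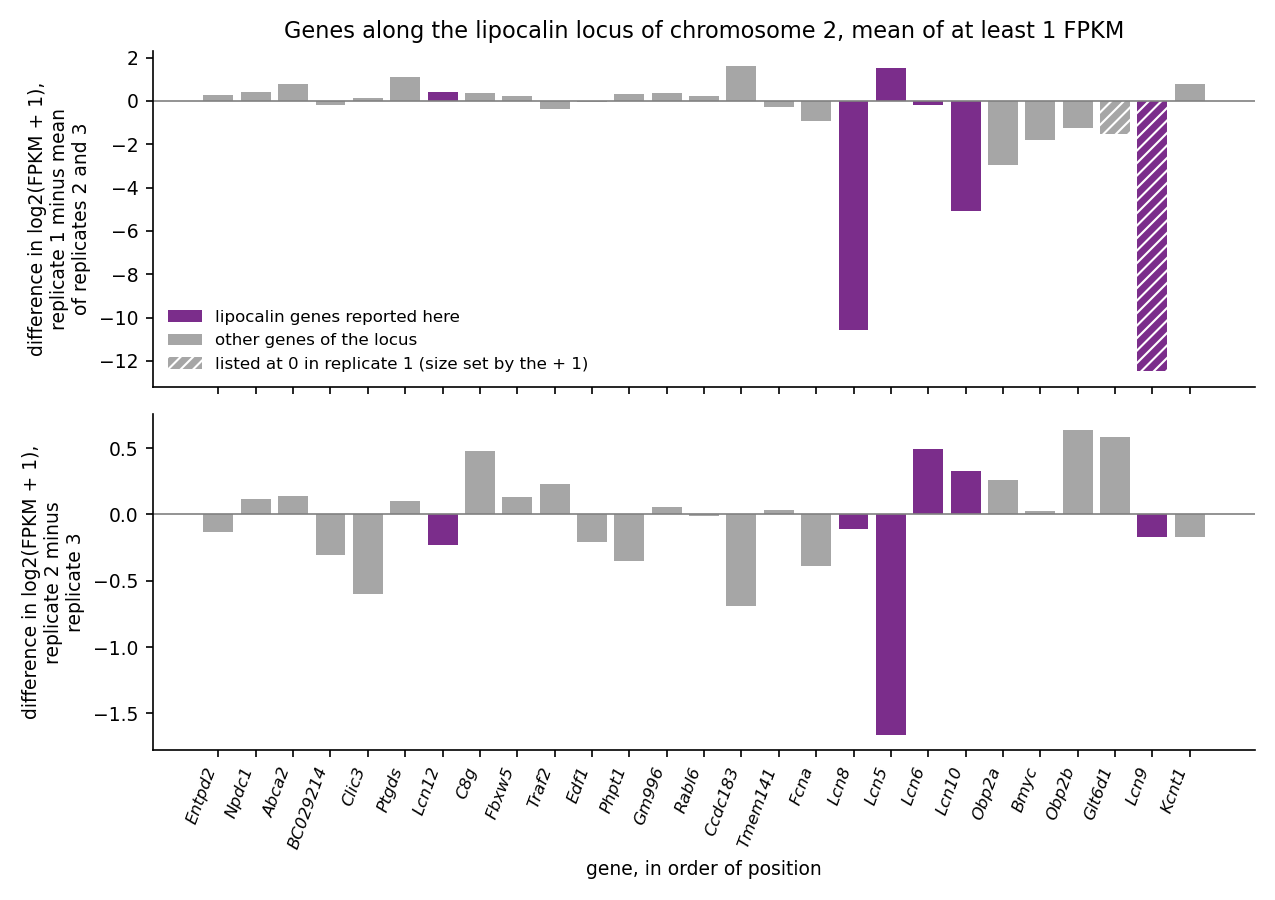
Differences in log2(FPKM + 1) between libraries for genes within 100 kb of the clustered lipocalins whose mean reached 1 FPKM, in order along chromosome 2 (bars; lipocalin genes reported here in purple, other genes in grey). Replicate 1 minus the mean of replicates 2 and 3 is -10.59 at Lcn8, -5.08 at Lcn10 and 1.51 at Lcn5, the hatched bars of Lcn9 and Glt6d1 have a length set by the + 1 because both are listed at 0 in replicate 1, and replicate 2 minus replicate 3 is widest at Lcn5 (-1.66).

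Most other members of the lipocalin family were near or at 0. Of 20 family genes listed beside the 7, 15 were in the table and 6 had a mean of at least 1 FPKM. Ptgds was the highest of them and Ambp the lowest above 0 by mean, with 0.0625 FPKM in replicate 1 and 0 listed in the others. Apod, encoding apolipoprotein D, stood at 131, 143 and 160 FPKM. Lcn4, Lcn11, Orm2 and Obp1a were listed at 0 in all libraries. The acute phase genes Orm1 and Orm3 were listed at 0 in at least 1 library and reached at most 0.321 FPKM (Orm1 in replicate 3) and 0.278 FPKM (Orm3 in replicate 2). Of 20 major urinary protein genes, a lipocalin group that carries pheromones in urine, 18 were listed at 0 in all libraries. Mup4 stood at 4.82, 13.7 and 10.2 FPKM and Mup6 at 0.586, 17.6 and 21.3 FPKM, which put Mup6 low in replicate 1. The genes of this group are near copies of each other, so the assignment of reads between them is uncertain.

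Genes that are known to act on or with the epididymal lipocalins were read alongside them. Nr3c1, the glucocorticoid receptor gene, had 4.97, 5.71 and 5.39 FPKM in replicates 1, 2 and 3, and Esr1, an estrogen receptor gene, had 14.7, 7.68 and 7.06 FPKM. Neither was low or high in any library. Of 16 retinoid genes, 12 had a mean of at least 1 FPKM, and Stra6, the retinol uptake receptor gene, was the one high in replicate 1 (14.1, 3.34 and 3.31 FPKM). Aldh1a1, which makes retinoic acid from retinal, was the highest at 468, 786 and 648 FPKM. The retinoic acid receptor genes Rara (15.3, 11.9 and 12.0 FPKM) and Rarg (21.5, 15.8 and 16.3 FPKM) stood close together in all libraries. Cyp26a1, which degrades retinoic acid, and the dehydrogenase gene Dhrs9 were listed at 0 in all libraries but 1, with 0.122 FPKM in replicate 1 and 0.0298 FPKM in replicate 2.

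Among the forkhead and C/EBP factors, Foxa2, a factor known to bind the Lcn5 promoter in the mouse, was at 0.0403 FPKM in replicate 2 and listed at 0 in the others. Foxa1, the lowest of the list by mean, was at 0.0214 FPKM in replicate 1 alone, and Foxa3 was listed at 0 in replicate 1 with 0.468 and 0.0487 FPKM in replicates 2 and 3. Cebpb was the highest of the list and was low in replicate 1, at 6.54, 27.3 and 31.4 FPKM. Cebpa (3.99, 16.7 and 8.47 FPKM) and Cebpd (4.45, 4.40 and 3.91 FPKM) were neither low nor high in any library. Of the 6 ETS and lumicrine genes, Etv1, Etv4, Etv5 and Dusp6 were low in replicate 1, the last of them a feedback phosphatase of ERK signalling. Etv4, Etv5 and Ros1 are also among the initial segment markers above, so their values are not a separate observation. Etv5 stood at 1.94, 188 and 144 FPKM. Ros1, encoding the lumicrine receptor, had 21.1, 36.6 and 34.8 FPKM, and Spry4, encoding an inhibitor of ERK signalling, was lowest at 0.901, 3.28 and 2.62 FPKM. All 6 NF-kB genes, of which Nfkbia was highest by mean (46.2, 35.3 and 32.1 FPKM) and Nfkbiz lowest (6.15, 5.28 and 6.34 FPKM), were neither low nor high in any library.

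**Figure D4:**
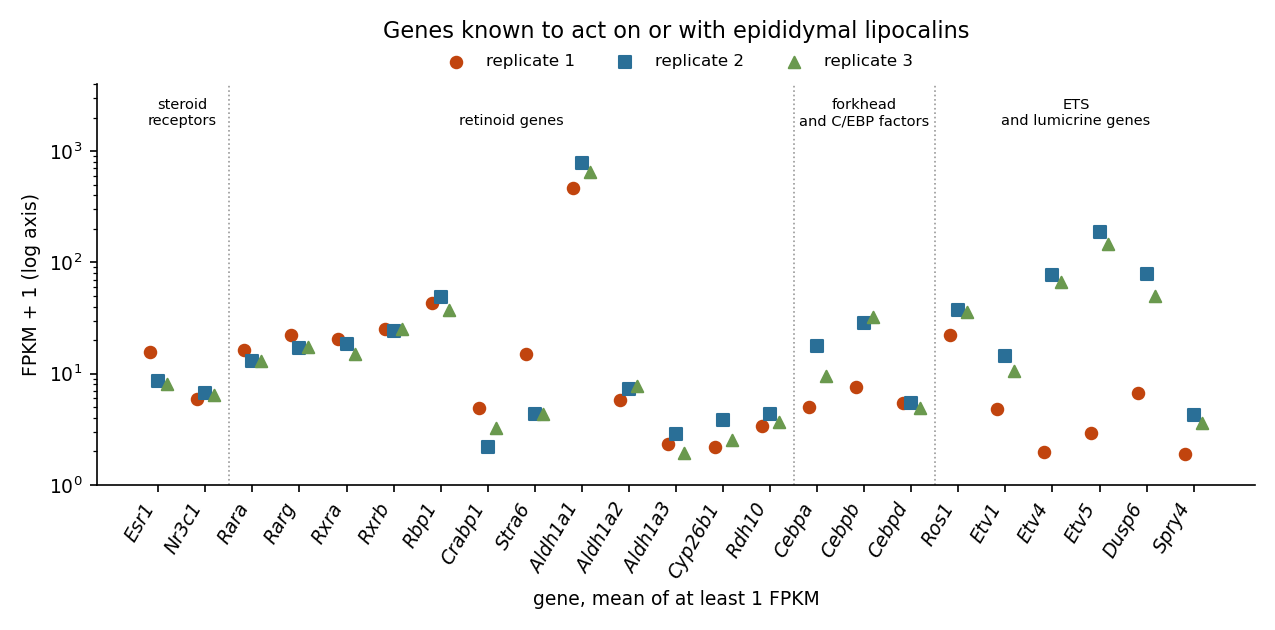
FPKM + 1 on a log axis for Nr3c1, Esr1 and for retinoid, forkhead and C/EBP, and ETS and lumicrine genes whose mean reached 1 FPKM, 1 point per library labelled Ovch2-/-. Points of Nr3c1, Rara and Rarg lie close together, whereas Cebpb, Etv1, Etv4, Etv5 and Dusp6 lie lower in replicate 1 and Stra6 lies higher there.

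The genes whose pattern over the 3 libraries was most like that of each lipocalin were found by the distance between their deviations from their own means in log2(FPKM + 1), among 9225 other genes whose mean reached 5 FPKM. With 3 libraries many genes can lie close by chance, so these are descriptions. Distances that involve Lcn9 or Ntsr1, both listed at 0 in replicate 1, depend on the 1 added. Other low values in replicate 1 have the same effect, such as those of Etv4, Gm4846 and Cst12, each under 1 FPKM there. In FPKM, replicate 1 lay 74.0-fold below the mean of the others for Etv4, against 34.7-fold for Lcn10. For Lcn8 the nearest genes were 9230104L09Rik (6.31, 6745 and 6337 FPKM, distance 0.66), Gm4846 (0.707, 1930 and 1294 FPKM, distance 0.77) and Rnase10, an RNase A family gene of the initial segment (2.58, 3077 and 2708 FPKM, distance 0.79). For Lcn9 the nearest was Cst12, a cystatin family gene (0.576, 5676 and 5135 FPKM, distance 0.65), followed by Lcn8 itself (distance 1.55) and 9230104L09Rik. For Lcn10 they were the neurotensin receptor gene Ntsr1 (listed at 0, then 37.3 and 28.0 FPKM, distance 0.057), the glutamate transporter gene Slc1a1 (5.68, 238 and 202 FPKM, distance 0.073) and the ETS factor gene Etv4 (0.960, 75.9 and 66.1 FPKM, distance 0.13).

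Lcn5 was nearest to genes of another kind. These were the beta-defensin genes Defb13 (92.0, 19.1 and 60.1 FPKM, distance 0.090) and Defb21 (1076, 222 and 737 FPKM, distance 0.092) and the transcription factor gene Tfap2b (33.2, 5.72 and 18.8 FPKM, distance 0.092). Lcn2 was nearest to Gm15386 (1017, 3746 and 3348 FPKM, distance 0.029), a symbol that RefSeq lists as a synonym of the beta-defensin gene Defb41, then to Gm31763 (2.35, 10.8 and 9.75 FPKM, distance 0.033) and Hip1r (39.5, 139 and 123 FPKM, distance 0.055). For Lcn6 (2310040G24Rik, Acss1 and Vps35) and Lcn12 (Adh5, Rasl12 and Rplp2) the nearest genes lay at distances of up to 0.023 and 0.0072, and the median range between libraries over the 13073 genes was 0.36 in log2(FPKM + 1).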

How the data were processed

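Libraries of polyadenylated RNA from initial segment and caput tissue of 3 samples labelled Ovch2-/- were prepared after TRIzol extraction by means of the stranded TruSeq mRNA kit, per the labels' protocols. The authors deposited normalized FPKM values per gene and library, per the file headers. The submitters' processing notes name TopHat2 2.1.1, Cufflinks 2.2.1 and build mm10, whereas annotation, strand setting and the further normalization are unknown here (not given in the sources used). The median-of-ratios factors of the deposited values were 0.997, 1.01 and 1.01, so the libraries were already on 1 scale by that measure.

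Columns were matched to samples by name. Gene identifiers matched RefSeq for 24260 of 24346 genes. FPKM values are not counts and the labels give 1 group, so no count model and no test was used. Differences are on the log2(FPKM + 1) scale, where low genes differ by less than in FPKM. Low values were compared between libraries for relative depth (under 0.5 FPKM, tolerance 0.02 in log2). Without counts, no counting interval could be computed. The members and gene lists were chosen with earlier results of these data known. Named genes were all members, the highest and lowest of each list, those listed at 0 in some libraries, those low or high in 1 library as defined in the text, and the 3 nearest in pattern to each member. One planned list gene is not reported here. Other list members and neighbours were chosen after their values were seen, as was the TATAA search, made on the gene's strand. Scaling and counting were tested on simulated data. Alternatives were 2 other scalings, a pseudocount of 0.1, leaving out genes under 200 bases and leaving out each replicate. Python 3.11.15, numpy 2.4.6, pandas 2.3.3 and matplotlib 3.10.9 were used.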

Additional observations from a re-analysis of the deposited data

How the results depend on the processing

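The first settings were median-of-ratios scaling, the same sum in each library, a pseudocount of 0.1 and leaving out genes under 200 bases. With each, levels and ranges of the 7 genes moved by less than the spread (SD) between libraries, and their counts were unchanged. The SD was 6.12 for Lcn8 and 2.94 for Lcn10 in log2(FPKM + 1), mostly through replicate 1, so a smaller move says little there. That spread is wide for Lcn9, listed at 0 in replicate 1: with a pseudocount of 0.1 its range was 15.90 in place of 12.58 and its mean level 7.22 in place of 8.33, on the log2 scale, so neither value measures the size of its difference. A share of a library's own total cannot change with scaling. Leaving out 1 replicate moved the ranges between the highest and lowest library. In log2(FPKM + 1) the range ran from 0.11 to 10.65 for Lcn8, from 0.17 to 12.58 for Lcn9, from 0.33 to 5.24 for Lcn10, from 0.18 to 1.86 for Lcn2 and from 0.23 to 0.52 for Lcn12, lowest without replicate 1 in each. It ran from 0.67 to 2.34 for Lcn5 and from 0.072 to 0.49 for Lcn6, lowest without replicate 2 in both. The members high in replicate 1 numbered 0 to 1, the 1 being Lcn5 without replicate 3, when replicate 2 alone was left to compare. Without a filter on low values, 2.23% of all genes were low in replicate 1, since genes near 0 cannot reach that gap on the FPKM + 1 scale. No paired analysis was possible because the 3 libraries form 1 group. Depth is known only in relation between libraries, so a value listed at 0 has no upper limit here.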
